A study of Homo sapiens with 4 samples.

Results

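The genes described here are those of the core TGF-beta pathway, 10 in all: the ligands TGFB1 and TGFB3, the receptors TGFBR1, TGFBR2 and TGFBR3, the receptor-regulated SMADs SMAD2 and SMAD3, the common SMAD4, and the inhibitory SMADs SMAD6 and SMAD7. They were chosen by gene symbol among the 48162 genes of the deposited table, and each symbol was found once. The third ligand gene of the family, TGFB2, is not among the 10 and is given beside them. MDA-MB-231, an established human breast cancer cell line that forms no estrogen receptor, was exposed for 24 h to MGH-CP1 or to the vehicle (DMSO), and poly-T selected RNA was sequenced in 2 libraries per condition. MGH-CP1 blocks the palmitoylation of TEAD, the DNA-binding partner of the co-activators YAP and TAZ. The labels give its dose as 10 µM, while the study's methods print the dose in millimolar. All groups are of this single line in serum-containing medium, which can itself carry TGF-beta, and nothing states that the 2 libraries of a condition came from separate cultures, so the p-values measure only the spread between these libraries.

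TGF-beta is secreted in a latent form, bound to its own propeptide and often to a latent TGF-beta binding protein of the matrix, and must be released before it can act. The free ligand binds the type II receptor TGFBR2, which phosphorylates the type I receptor TGFBR1. TGFBR1 then phosphorylates SMAD2 and SMAD3, which enter the nucleus with SMAD4 and regulate target genes. SMAD6 and SMAD7 are themselves induced by this family of ligands and block the receptors. In breast cancer cells the pathway is known both for slowing growth and for driving a mesenchymal, invasive state, and SMAD3 can share target genes with TEAD and YAP.

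The values are FPKM, fragments per kilobase of gene, scaled to the fragments on genes of each library. Levels of different genes are compared through a single length per gene, and the transcripts in use are not known, so such comparisons are approximate. In total 25455533 and 25508824 fragments lay on genes with vehicle but 17997221 and 17577930 with MGH-CP1, so depth moved with the condition, and its part in the results was not tested. Levels of the 5 markers of the line (VIM, CD44, AXL, CAV1 and MSN) lay between 149 and 389 FPKM. The luminal markers ESR1 and PGR did not exceed 0.0243 FPKM and CDH1 not 0.638, whereas EPCAM, GATA3 and ERBB2 lay between 4.17 and 28.4. The 6 stromal, leukocyte and endothelial markers found in the table summed to between 0.223 and 0.336 FPKM in every library, with CD3E and CDH5 at 0 throughout. The TEAD-YAP target genes used as a check of the compound were lower after MGH-CP1, with log2 fold changes of -0.75 for CYR61, -0.66 for CTGF and -0.66 for ANKRD1.

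Of the 10 genes, 5 rose after MGH-CP1 and 0 fell (limma on log2(FPKM + 1), adjusted p under 0.05 over the 12080 genes whose FPKM averaged 1 or more). All 3 receptors rose, together with TGFB1 and SMAD7. SMAD2, SMAD3 and SMAD4, which carry the signal to the nucleus, did not pass the test, and neither did TGFB3 and SMAD6. Over all genes tested, 27.1% were called higher and 23.8% lower, so calls were frequent in this comparison. At an unadjusted limma p under 0.05, 7 of the 10 were higher and 0 lower. Under that p, in either direction, were 6911 of the 12080 genes tested. By voom on recovered fragments 6 of the 10 were called higher and 0 lower, against 3480 higher and 3113 lower over all genes tested. The median log2 fold change was 0.28 over the 10 genes and 0.01 over all genes tested. As the 10 genes were chosen with earlier results of these data known, this difference is a description only. Without MGH-CP1 replicate 1, 3 of the 10 genes were called. Without variance shared between genes 0 were called, and without the filter on low values 1 was.

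In 8 of the 10 genes both MGH-CP1 libraries lay above both vehicle control libraries, a state found in 39.8% of all genes tested. SMAD2 had both MGH-CP1 libraries below, as did 37.4% of the genes tested, and SMAD4 overlapped. All 10 genes passed the filter, and each had a mean above 1 FPKM in either condition. In bulk RNA such as this, fewer cells that express a gene and less RNA of it per cell cannot be told apart.

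**Figure D1:**
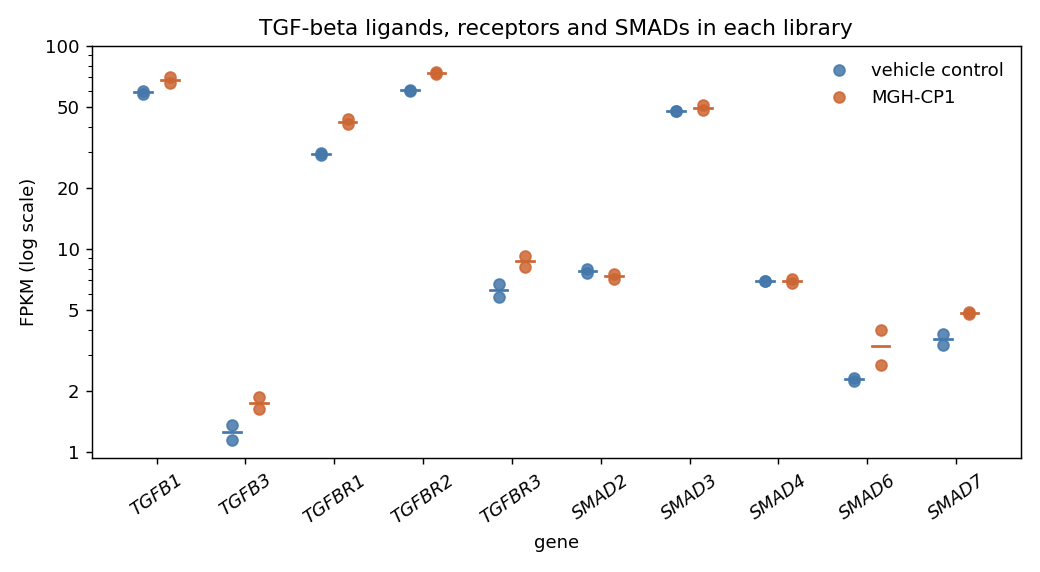
FPKM (log scale) of the 10 genes in each library, with vehicle control in blue, MGH-CP1 in orange and the mean of each pair as a bar. Levels span from 1.14 FPKM for TGFB3 to 74.2 FPKM for TGFBR2, and SMAD4 is the gene whose pairs overlap.

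With vehicle, 4 of the genes were well above the rest. TGFBR2 (60.5 ± 0.570 FPKM, mean ± SD, n = 2), TGFB1 (59.1 ± 1.26 FPKM), SMAD3 (47.6 ± 0.0838 FPKM) and TGFBR1 (29.3 ± 0.468 FPKM) were high. SMAD2 (7.77 ± 0.271 FPKM), SMAD4 (6.98 ± 0.00234 FPKM), TGFBR3 (6.25 ± 0.675 FPKM), SMAD7 (3.59 ± 0.302 FPKM), SMAD6 (2.27 ± 0.0405 FPKM) and TGFB3 (1.25 ± 0.145 FPKM) followed. The ranges of neighbours in this order did not overlap, although TGFB1 (58.2 to 60.0) and TGFBR2 (60.1 to 60.9) nearly touched. After MGH-CP1 the order was the same except that TGFBR3, at 8.68 ± 0.723 FPKM, stood above SMAD2 and SMAD4, whose ranges overlapped each other.

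The receptors all rose, with both treated libraries of each above both controls. TGFBR1, the type I receptor kinase (chromosome 9, plus strand, 101866320 to 101916474 in the coordinates of the table, which the submitters' processing notes call hg19), had 29.0 and 29.7 FPKM with vehicle and 41.1 and 43.8 FPKM with MGH-CP1. Both treated libraries stood well above both controls. Its log2 fold change (with its standard error, SE) was 0.52 (SE 0.05, limma adjusted p = 1.88e-04), and 10.0% of the genes tested had a larger one. The ratio of the mean levels was 1.45. An exact permutation test over the libraries gave p = 0.333 (two-sided), the smallest that 2 libraries against 2 allow, as it did for every gene whose libraries did not overlap.

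TGFBR2, the type II receptor that binds the ligand first (chromosome 3, plus strand, 30647994 to 30735634), had 60.9 and 60.1 FPKM with vehicle and 72.7 and 74.2 FPKM with MGH-CP1. The groups did not overlap and each pair was tight. This was a log2 fold change of 0.28 (SE 0.05, limma adjusted p = 0.00169). TGFBR3, also called betaglycan, is a co-receptor that presents ligand to TGFBR2 and can be shed to trap it (chromosome 1, minus strand, 92145902 to 92371892). It had 6.73 and 5.77 FPKM with vehicle and 9.19 and 8.17 FPKM with MGH-CP1. Relative to its level TGFBR3 differed more between replicates than the other receptors, yet the lower treated library was above the higher control. TGFBR3 thus rose by 0.42 on the log2 scale (SE 0.09, limma adjusted p = 0.00623).

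The balance between the receptors was read as ratios within a library, which no scaling between libraries can move. The TGFBR1/TGFBR2 ratio was 0.477 and 0.494 with vehicle and 0.564 and 0.590 with MGH-CP1. It was thus higher in both treated libraries, by 1.19 times on average (exact permutation test, two-sided, p = 0.333). The TGFBR3/TGFBR2 ratio was 0.111 and 0.0961 with vehicle and 0.126 and 0.110 with MGH-CP1, so the groups overlapped (exact permutation test, two-sided, p = 0.667).

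Promoter windows of 300 bases (250 before to 50 after a start site, RefSeq, GRCh38.p14) were searched on both strands for the TEAD core CATTCC, the SMAD box CAGAC, the SMAD palindrome GTCTAGAC and the AP-1 site TGANTCA. These factors are known to bind such letters, and AP-1 often stands beside TEAD and SMAD3. Of 35116 windows of all genes, 14.0% held the TEAD core, 45.3% the SMAD box, 0.202% the palindrome and 7.71% the AP-1 site. All 10 genes had windows, 26 in all, of which 1 held the TEAD core, 10 the SMAD box, 1 the palindrome and 2 the AP-1 site. The palindrome holds neither CAGAC nor its complement GTCTG, and a match is a description of letters, not of binding.

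The windows of TGFBR1 and TGFBR2 that held the TEAD core or the AP-1 site are printed because both receptors rose. The other AP-1 site lay in a window of SMAD3, which was not called. TGFBR3, TGFB1 and SMAD7, which also rose, held neither in any window, and a link between these letters and the changes was not tested. The capitals mark the match, which begins 132 bases before the start site in TGFBR1 (GGAATG, the TEAD core on the other strand, chr9:99104442-99104741, plus strand, 1 of 8 windows of the gene) and 6 bases before it in TGFBR2 (the AP-1 site, chr3:30606351-30606650, plus strand, 1 of 2 windows).
TGFBR1: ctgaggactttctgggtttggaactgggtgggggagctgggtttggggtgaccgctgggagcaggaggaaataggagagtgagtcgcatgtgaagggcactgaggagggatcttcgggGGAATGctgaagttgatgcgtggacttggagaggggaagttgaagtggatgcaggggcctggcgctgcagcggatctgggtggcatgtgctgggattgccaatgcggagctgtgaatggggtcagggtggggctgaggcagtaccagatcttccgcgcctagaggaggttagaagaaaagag
TGFBR2: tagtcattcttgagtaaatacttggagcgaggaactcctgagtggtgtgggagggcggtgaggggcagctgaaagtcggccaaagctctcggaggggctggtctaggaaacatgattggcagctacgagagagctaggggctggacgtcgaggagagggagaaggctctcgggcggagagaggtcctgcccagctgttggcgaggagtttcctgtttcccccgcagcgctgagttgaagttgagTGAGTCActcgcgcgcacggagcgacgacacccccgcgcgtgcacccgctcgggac

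Of the ligands, TGFB1 rose by a small amount, while TGFB2 fell. TGFB1, the ligand best known in tumors (chromosome 19, minus strand, 41807492 to 41859816), had 60.0 and 58.2 FPKM with vehicle and 70.2 and 65.5 FPKM with MGH-CP1. The groups did not overlap, and the treated libraries differed from each other more than the controls did. The rise was 0.20 on the log2 scale (SE 0.05, limma adjusted p = 0.0154), the smallest among the 5 genes called. Without MGH-CP1 replicate 1 it was 0.15, with an adjusted p of 0.110 from limma. The region of TGFB1 overlaps that of HNRNPUL1 on the opposite strand, which held 7446 to 14077 fragments per library against 3190 to 4226 on TGFB1, and that of CCDC97, with 834 to 1087. Whether the counting used the strand is not given in the sources used here.

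TGFB3 (chromosome 14, minus strand, 76424442 to 76449334) was the lowest of the 10 genes. It had 1.35 and 1.14 FPKM with vehicle and 1.62 and 1.87 FPKM with MGH-CP1, on 79 to 93 fragments per library. The treated libraries were both higher, but the log2 fold change of 0.29 (SE 0.12) did not pass the test (limma adjusted p = 0.0781), with a 95% interval from 0.01 to 0.57. The size of this change depended on the scale, at 0.46 with a pseudocount of 0.1, 0.49 with voom on recovered fragments and 0.13 with quantile normalization, and none of these passed the test (limma adjusted p = 0.0834, 0.0576 and 0.411). TGFB3 lies within the region of IFT43 on the other strand, which held 190 to 204 fragments per library. The TGFB1/TGFB3 ratio was 44.4 and 50.9 with vehicle and 43.3 and 35.1 with MGH-CP1, lower in both treated libraries (exact permutation test, two-sided, p = 0.333).

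TGFB2, which needs the co-receptor TGFBR3 more than the other ligands to bind TGFBR2, had 42.4 and 37.4 FPKM with vehicle and 23.7 and 25.8 FPKM with MGH-CP1. Both treated libraries were far below both controls. TGFB2 fell by 0.67 on the log2 scale (SE 0.07, limma adjusted p = 2.24e-04). The TGFB2/TGFB1 ratio, chosen after the values were seen, went from 0.708 and 0.643 to 0.338 and 0.394. TGFB2 made up 40.9% and 38.7% of the summed FPKM of the 3 ligands with vehicle and 24.8% and 27.7% with MGH-CP1. The sum itself was 104 and 96.7 FPKM with vehicle and 95.5 and 93.2 FPKM with MGH-CP1, so the groups did not overlap but lay close.

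The TGFB2 window is printed because TGFB2 is the ligand that fell and because its window holds the TEAD core (chr1:218345086-218345385, plus strand, its only window). The capitals mark CATTCC, which begins 185 bases before the start site, and the SMAD box CAGAC at 243 and at 53 bases before it. The TEAD core also lay in a window of TGFBR1, which rose, and in 14.0% of all windows. The SMAD box lay in 45.3% of all windows, and a link between these letters and the fall was not tested.
TGFB2: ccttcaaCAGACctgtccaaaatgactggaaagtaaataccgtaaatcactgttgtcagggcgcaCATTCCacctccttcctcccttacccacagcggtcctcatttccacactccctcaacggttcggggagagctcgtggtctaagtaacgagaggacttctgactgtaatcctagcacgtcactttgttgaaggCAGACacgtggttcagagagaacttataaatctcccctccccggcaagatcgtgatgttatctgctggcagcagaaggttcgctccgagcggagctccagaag

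The SMADs that carry the signal showed no call in either direction. SMAD3, the receptor-regulated SMAD that binds DNA directly (chromosome 15, plus strand, 67356101 to 67487533), had 47.7 and 47.6 FPKM with vehicle and 48.1 and 51.1 FPKM with MGH-CP1. Its log2 fold change was 0.06, with a 95% interval from -0.06 to 0.18 (limma adjusted p = 0.388). SMAD2, its closest relative (chromosome 18, minus strand, 45357922 to 45457515), had 7.96 and 7.58 FPKM with vehicle and 7.09 and 7.54 FPKM with MGH-CP1. The lower control and the higher treated library of SMAD2 were almost level, and its log2 fold change was -0.08, with an interval from -0.24 to 0.09 (limma adjusted p = 0.406).

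SMAD4, the shared partner of both SMAD branches (chromosome 18, plus strand, 48494410 to 48611415), had 6.98 and 6.98 FPKM with vehicle and 6.80 and 7.12 FPKM with MGH-CP1. The treated libraries of SMAD4 fell on either side of the controls. Its log2 fold change was -0.00, with an interval from -0.17 to 0.16 (limma adjusted p = 0.973). The intervals of SMAD2, SMAD3 and SMAD4 thus leave room for changes of up to 0.24 on the log2 scale, and none of the 3 reached the 0.52 of TGFBR1. The SMAD2/SMAD3 ratio was 0.167 and 0.159 with vehicle and 0.147 and 0.148 with MGH-CP1, lower in both treated libraries (exact permutation test, two-sided, p = 0.333).

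**Figure D2:**
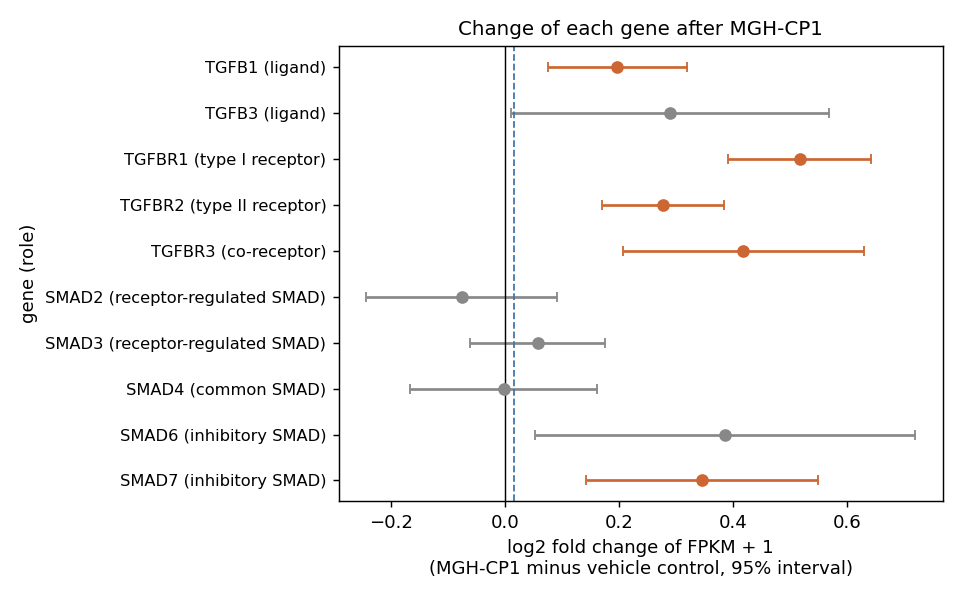
Log2 fold change of FPKM + 1 with its 95% interval for each gene and its role, MGH-CP1 minus vehicle control. The 5 genes called higher are orange, the others gray, and the dashed blue line is the median of all genes tested (0.01). The 3 receptors lie between 0.28 and 0.52, and the intervals of SMAD2, SMAD3 and SMAD4 cross 0.

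Of the inhibitory SMADs, SMAD7 rose and SMAD6 was uneven. SMAD7, which recruits ubiquitin ligases to TGFBR1 and is a feedback target of TGF-beta (chromosome 18, minus strand, 46446223 to 46477081), had 3.80 and 3.38 FPKM with vehicle and 4.88 and 4.77 FPKM with MGH-CP1. Both treated libraries were above both controls, on 259 to 299 fragments per library. The rise of SMAD7 was 0.34 on the log2 scale (SE 0.09, limma adjusted p = 0.0124). The call was lost without vehicle control replicate 2 (0.28, limma adjusted p = 0.0718) and without MGH-CP1 replicate 1 (0.33, adjusted p = 0.0540).

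SMAD6, which acts mainly on the BMP branch (chromosome 15, plus strand, 66994566 to 67074338), had 2.30 and 2.24 FPKM with vehicle and 3.98 and 2.67 FPKM with MGH-CP1. Its treated libraries were both higher but far apart, and 1 library set the size of the change. The log2 fold change was 0.38 (SE 0.14, limma adjusted p = 0.0554), with an interval from 0.05 to 0.72. It was 0.16 without MGH-CP1 replicate 1 (limma adjusted p = 0.317) and 0.61 without MGH-CP1 replicate 2 (adjusted p = 0.00448). SMAD6 had 140 to 214 fragments per library.

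The sum of the inhibitory SMADs over that of SMAD2 and SMAD3 was 0.110 and 0.102 with vehicle and 0.160 and 0.127 with MGH-CP1. This ratio was higher in both treated libraries, by 1.36 times on average (exact permutation test, two-sided, p = 0.333). The SMAD6/SMAD7 ratio, at 0.605 and 0.664 with vehicle and 0.816 and 0.559 with MGH-CP1, overlapped between the groups (exact permutation test, two-sided, p = 1.0).

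The inhibitory SMAD windows are printed because both genes are known to be induced by ligands of the family through SMAD binding sites. The capitals mark the palindrome that begins 12 bases before the SMAD6 start site (chr15:66701986-66702285, plus strand, its only window) and the boxes CAGAC at 217 and 128 bases before that of SMAD7 (chr18:48950916-48951215, minus strand, 1 of 3 windows). Another window of SMAD7, not printed, held the box on the other strand, 193 bases before its start site. The box lay in 45.3% of all windows, and windows of TGFBR1, TGFB3 and SMAD3 held it too.
SMAD6: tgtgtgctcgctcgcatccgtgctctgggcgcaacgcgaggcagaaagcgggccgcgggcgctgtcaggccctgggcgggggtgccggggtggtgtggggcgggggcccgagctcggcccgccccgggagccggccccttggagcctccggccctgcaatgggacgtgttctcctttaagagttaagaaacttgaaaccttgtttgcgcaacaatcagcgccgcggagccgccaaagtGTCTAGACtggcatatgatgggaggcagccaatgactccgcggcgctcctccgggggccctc
SMAD7: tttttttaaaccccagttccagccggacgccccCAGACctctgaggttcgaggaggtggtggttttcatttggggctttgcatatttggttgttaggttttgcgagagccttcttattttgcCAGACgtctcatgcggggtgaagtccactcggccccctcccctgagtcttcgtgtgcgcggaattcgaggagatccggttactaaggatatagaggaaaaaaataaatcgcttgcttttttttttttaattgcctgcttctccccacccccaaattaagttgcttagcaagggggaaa

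**Figure D3:**
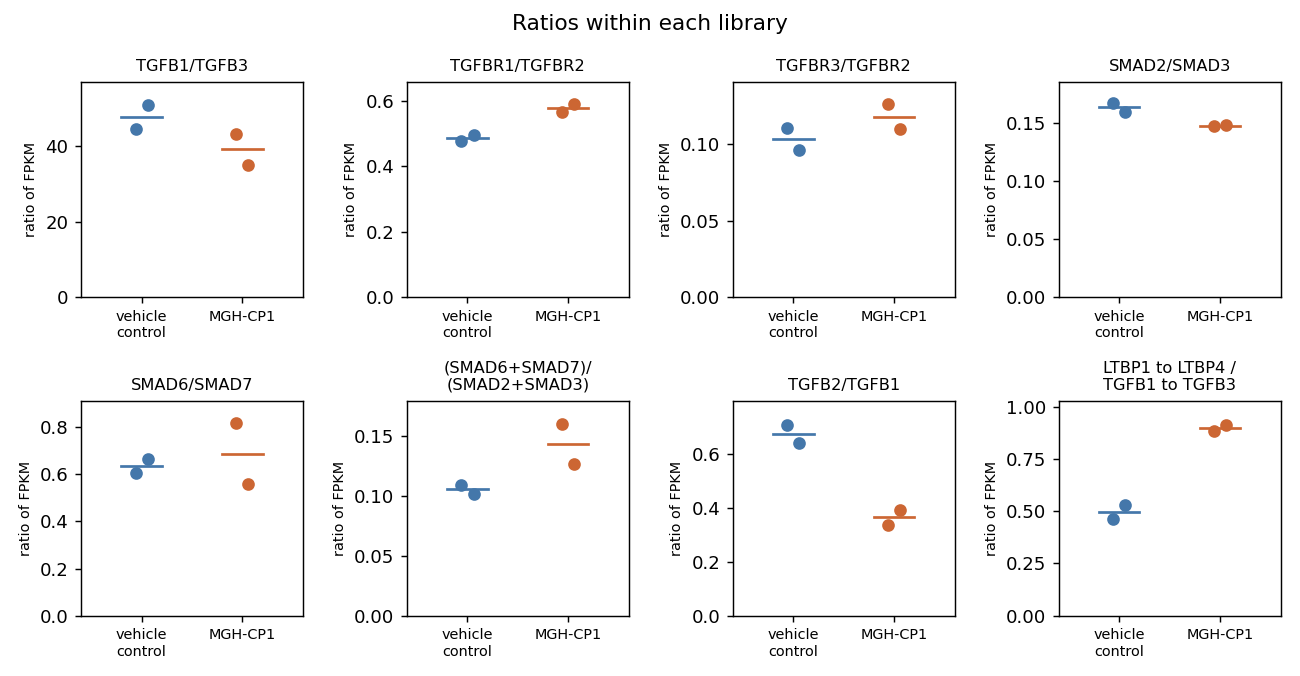
Ratios of FPKM within each library, vehicle control in blue and MGH-CP1 in orange, with the mean of each pair as a bar and the y axis from 0. TGFBR1/TGFBR2, (SMAD6+SMAD7)/(SMAD2+SMAD3) and the sum of LTBP1 to LTBP4 over that of TGFB1 to TGFB3 are higher in both MGH-CP1 libraries. TGFB1/TGFB3, SMAD2/SMAD3 and TGFB2/TGFB1 are lower in both, and TGFBR3/TGFBR2 and SMAD6/SMAD7 overlap.

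The rest of the ligand, receptor and SMAD family was read from a list of 23 genes, of which 10 passed the filter. Against 27.1% of all genes tested called higher and 23.8% lower, 2 of these 10 rose and 2 fell. The median log2 fold change of the 10 was -0.02. TGFB2 is described above, and the other 3 genes called are named after their values were seen. BMP4, a bone morphogenetic protein that signals through SMAD1 and SMAD5, rose from 121.8 and 121.3 FPKM to 165 and 154 FPKM (log2 fold change 0.39, limma adjusted p = 5.22e-04). INHBB, which codes for an activin subunit, rose from 4.32 and 5.27 FPKM to 6.54 and 6.92 FPKM (0.42, adjusted p = 0.00767). SMAD5, a BMP-regulated SMAD, had the smallest change of the 4 (-0.16, adjusted p = 0.0495), and its call was lost when any of the 4 libraries was left out.

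No activin or BMP receptor in the list passed the test, unlike TGFBR1 and TGFBR2, although the difference between these receptors was not tested. ACVR1, ACVR1B, ACVR2A, BMPR1A and BMPR2 had log2 fold changes between -0.15 (ACVR1, limma adjusted p = 0.117) and 0.09 (BMPR2, adjusted p = 0.323). The 13 genes of the list that were not tested, among them SMAD1, SMAD9 and the endothelial co-receptor ENG, did not exceed 1.03 FPKM in any library.

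Of the regulators of latency, activation and signalling, 26 of 31 were tested, and 6 rose and 6 fell. Their median log2 fold change was -0.03. The shares over all genes tested were 27.1% higher and 23.8% lower. The latent TGF-beta binding proteins, which tether the latent ligand in the matrix, all rose. LTBP3 had 12.1 and 13.8 FPKM with vehicle and 33.5 and 32.1 FPKM with MGH-CP1 (log2 fold change 1.28, limma adjusted p = 1.91e-05). LTBP1 had 8.38 and 8.22 FPKM with vehicle and 15.7 and 15.95 FPKM with MGH-CP1 (0.85, adjusted p = 3.95e-05). In both genes the groups were far apart and the replicates close. LTBP2 and LTBP4, named after their values were seen to complete the family, each rose by 0.33 (adjusted p = 0.0117 and 0.00197). LTBP2 is the member of that family not known to bind TGF-beta itself.

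The summed level of the LTBP genes moved apart from that of the ligands. The sum of LTBP1 to LTBP4 over the sum of TGFB1 to TGFB3, chosen after the values were seen, was 0.461 and 0.528 with vehicle and 0.883 and 0.912 with MGH-CP1. It was 1.81 times higher on average in the treated libraries, with no overlap between the groups (exact permutation test, two-sided, p = 0.333).

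THBS1, which codes for thrombospondin-1 and can release TGF-beta from its latent complex, fell. It had 190.1 and 185 FPKM with vehicle and 94.0 and 117 FPKM with MGH-CP1, which is -0.83 on the log2 scale (SE 0.09, limma adjusted p = 1.97e-04). NEDD4L, a ubiquitin ligase that turns over activated SMAD2 and SMAD3, fell from 27.3 and 26.5 FPKM to 16.7 and 19.2 FPKM (-0.56, adjusted p = 4.59e-04). Both genes had every treated library below every control. ITGAV is an integrin subunit that takes part in activating the latent ligand, and SMAD7 brings the ligases SMURF1 and SMURF2 to the receptor. These genes, named after their values were seen, had log2 fold changes of 0.06, -0.02 and -0.04, and none passed the test. The integrin subunits ITGB6 and ITGB8 of the same list were not tested and did not exceed 0.677 FPKM in any library. Without the variance trend 3 in place of 6 regulators were called lower, while over all genes tested 2644 in place of 2869 were.

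**Figure D4:**
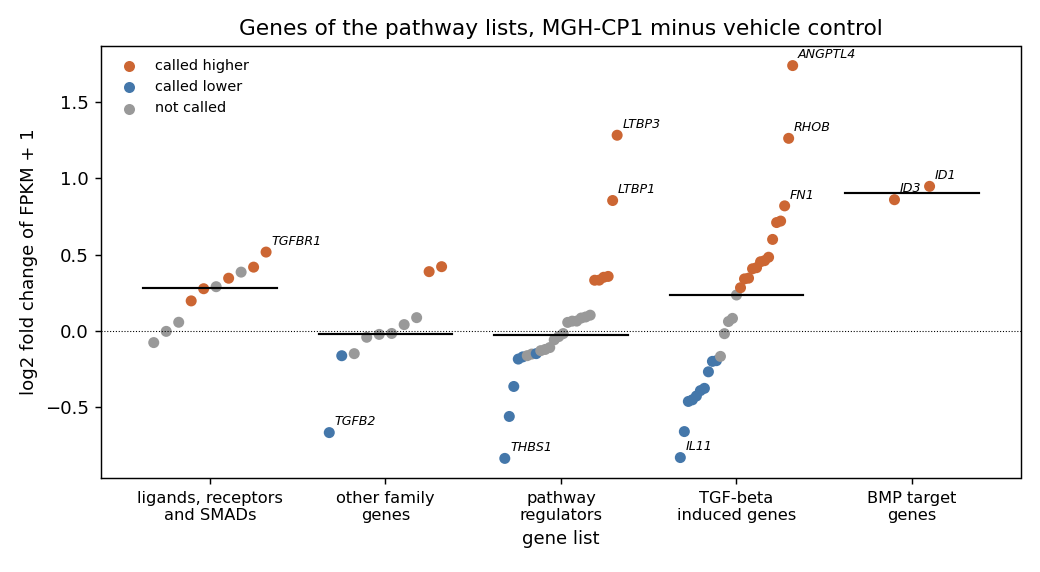
Log2 fold change of FPKM + 1 (MGH-CP1 minus vehicle control) of each tested gene in the 5 lists, sorted within a list, with called genes in orange (higher) or blue (lower), the others in gray and the list median as a bar. Genes of the TGF-beta induced list lie on both sides of 0, from -0.83 for IL11 to 1.74 for ANGPTL4.

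Genes known to be induced by TGF-beta changed in both directions. Over all genes tested, 27.1% were called higher and 23.8% lower. Of 38 listed genes, 29 were tested, of which 14 rose, 10 fell and 5 were not called, and their median log2 fold change was 0.24. ANGPTL4, a secreted inhibitor of lipoprotein lipase, rose most, from 3.55 and 3.88 FPKM to 15.8 and 13.7 FPKM (1.74, limma adjusted p = 1.50e-05). RHOB (1.26), FN1, which codes for fibronectin (0.82), VEGFA (0.72) and TSC22D1 (0.71) followed.

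Among the 10 genes of the TGF-beta induced list that fell were targets and feedback regulators of SMAD3, while 14 genes of the list rose. Besides those given above, JUNB, BHLHE40, CDKN1A, SNAI1 and LIF rose and are named after their values were seen. Their log2 fold changes were 0.60, 0.48, 0.46, 0.41 and 0.28. IL11, a cytokine of bone metastasis in this line, fell from 12.9 and 13.8 FPKM to 7.04 and 7.13 FPKM (-0.83, limma adjusted p = 6.30e-05). CTGF, a target of both SMAD3 and TEAD-YAP, fell from 93.5 and 94.6 FPKM to 55.9 and 62.6 FPKM (-0.66, adjusted p = 1.02e-04). PMEPA1 and SKIL, named after their values were seen, fell by 0.39 and 0.46 on the log2 scale (limma adjusted p = 0.0011 and 0.00471). SMAD7, a feedback target as PMEPA1 and SKIL are, rose, so these feedback genes did not share a direction. BAMBI, from the list of regulators and named after its values were seen, rose by 0.35 (limma adjusted p = 0.00824).

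Targets of the BMP branch were mostly silent, and 2 of 7 listed genes were tested. Both rose: ID1, an inhibitor of basic helix-loop-helix factors, from 60.2 and 56.0 FPKM to 116 and 109 FPKM (log2 fold change 0.95, limma adjusted p = 2.41e-05), and ID3, its close relative, from 9.08 and 9.56 FPKM to 17.7 and 17.7 FPKM (0.86, adjusted p = 3.84e-05). The other 5 genes of the list did not exceed 0.669 FPKM in any library. Over all genes tested, 27.1% were called higher.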

How the data were processed

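RNA of MDA-MB-231 cells was measured in 2 vehicle control and 2 MGH-CP1 libraries (paired-end reads, libraries made by Novogene). The authors deposited FPKM of 48162 genes, each with its symbol, position and length, and no further scaling is stated. The submitters' processing notes name CASAVA 1.8, STAR and hg19. The counting tool, its strand setting and the annotation are not given in the sources used here. In each library FPKM multiplied by length comes in whole steps of 1 size (tolerance 0.001, 100% of values), which gave the fragment numbers.

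Genes whose FPKM averaged 1 or more over the 4 libraries (12080) were compared on log2(FPKM + 1) with limma 3.58.1 in R 4.3.3 (lmFit, eBayes with trend, two-sided, 5.97 prior degrees of freedom). P-values were adjusted by Benjamini-Hochberg across these genes, and calls were made under 0.05. The pseudocount understates changes of low genes. The study's methods name a t test per gene, which is close to the fit without shared variance given among the alternatives. Permutation tests (exact) used scipy 1.17.1. The script was tested on simulated data. Replicates differed by more than sampling noise (chi-square over its degrees of freedom 4.38 and 3.16), so none was counted as a duplicate.

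The 10 genes and the 4 pathway lists were chosen with earlier results of these data known, the lists from general knowledge. Named by rule are the 10 genes, TGFB2, the TEAD-YAP check genes, in each list at most the 5 largest rises and 5 largest falls among called genes that moved by 0.5 or more on the log2 scale, and the 3 profiles nearest to the gene with the largest rise and to that with the largest fall, of which the former are not reported here. Others are said to be named after their values were seen. Alternatives were another pseudocount, other filters, scalings, variance models, a replicate block, voom on recovered fragments and leaving out each library. Promoter sequences came from RefSeq windows on GRCh38.p14, another build than that of the table, and were matched by symbol for all 10 genes.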

Additional observations from a re-analysis of the deposited data

How the results depend on the processing

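With all 48162 genes tested and no filter on low values, 1 of the 10 genes was called higher, 0 of the other family genes were called higher and 0 lower, 2 pathway regulators were higher and 0 lower, and 2 TGF-beta induced genes were higher and 4 lower. Over all genes 605 were higher and 490 lower, against 3273 and 2869 with the filter. Without variance shared between genes every one of these counts was 0, as was that of the BMP target genes higher, and over all genes 9 were higher and 4 lower, although 4947 had an unadjusted p under 0.05. The other family genes called lower numbered 1 with quantile normalization, 1 with the replicate block and 1 without the variance trend. Over all genes tested 3221, 3052 and 2644 were called lower in these fits. The pathway regulators called lower numbered 3 without the variance trend. With a library left out a group holds 1 library, so counts of calls are not given for those fits. In them the 5 genes called kept log2 fold changes between 0.15 (TGFB1) and 0.56 (TGFBR1), both without MGH-CP1 replicate 1. The log2 fold change of SMAD4 lay between -0.0325 and 0.0263 with each library left out, positive without MGH-CP1 replicate 1, the only reversal of direction among the 10 genes. TGFB1 was not called without the variance trend (adjusted p = 0.0545 from limma), where TGFB3 was (0.0308). With the replicate block 6 of the 10 genes were called, SMAD6 being added (adjusted p = 0.0219 from limma). Over all genes tested 3466 were then called higher and 3052 lower. Deviations of same-numbered libraries correlated at 0.078 across genes, and the labels do not say that a number marks a shared culture. Pseudocount and median-ratio scaling changed no count by more than 1.5 times. The depth limits TGFB3, SMAD6 and SMAD7 most, with under 300 fragments per library.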

Other observations

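By Euclidean distance between centred log2(FPKM + 1) profiles over the 4 libraries, the genes nearest to SMAD2 were SNHG3, FOXJ3 and DHRS7B, at distances of 0.0154, 0.0161 and 0.0164. With 4 libraries such likeness is common. Within a distance of 0.1 of SMAD2 lay 1022 genes.

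Among the markers of the line, AXL and CAV1 fell after MGH-CP1, with log2 fold changes of -0.76 and -0.49 (limma adjusted p = 4.25e-04 and 1e-04), while CD44 (0.12), VIM (-0.07) and MSN (-0.01) did not pass the test. CD44 was higher in both MGH-CP1 libraries (limma adjusted p = 0.063).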
